A study of Canis lupus familiaris with 33 samples.

Results

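The 6 immune checkpoint genes followed in canine invasive urothelial carcinoma (iUC) were CD274, PDCD1LG2, LGALS9, PDCD1, HAVCR2 and IDO1. They were chosen by name, as the 6 rows of the TMM-normalized table, out of 25096 genes, that carry these genes. The symbol column gave 5 of them, and LGALS9 was found through the NCBI gene number of its row (ENSCAFG00000018641), whose symbol cell repeats the Ensembl identifier. All 6 passed the filter on low values. The samples were 29 treatment-naive tumors of the urinary bladder, 1 from each of 29 pet dogs, taken as cystoscopic biopsies, and 4 samples of normal bladder mucosa stripped from the bladders of dogs euthanized for other conditions. Whether the dogs that gave the normals had been treated is not stated, and no transgene or cell line was involved. Per the study's methods the tumor-bearing dogs were of any age, sex or breed, the tumors were of high grade, and whether each normal came from a dog of its own is not said, so the p-values measure the spread between these samples.

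An immune checkpoint is a signal by which a T cell is held back. PD-L1 and PD-L2, the products of CD274 and PDCD1LG2, sit on tumor cells and antigen-presenting cells and bind PD-1, the product of PDCD1, on activated T cells. Galectin-9, the product of LGALS9, is a sugar-binding protein described as a ligand of TIM-3, the product of HAVCR2, which is carried by exhausted T cells and by myeloid cells, and IDO1 is the enzyme that starts the breakdown of tryptophan to kynurenine and so starves and restrains T cells. Interferon gamma, made by T cells and natural killer cells, is known to raise CD274 and IDO1.

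Each value is a log2 normalized value minus that gene's own median over the 33 samples, so 0 is the middle sample of that gene and 1 unit is a 2-fold difference between samples. Levels of different genes cannot be ranked on this scale, and the read depth of each sample is unknown. Because the RNA came from bulk tissue, fewer cells of a type and less RNA per cell cannot be told apart.

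Over all genes, the tumors and the normals differed widely. In limma's test, with the adjusted p held to 0.05 and a difference of 2-fold or more required, 10.7% of 24471 genes were higher in tumors (2615 genes) and 45.8% were lower (11206 genes). The median change of all genes was -0.84 on the log2 scale, and that of the 18418 genes whose median lies above their lowest value was -0.01. Between 755 and 1019 genes were at a shared lowest value in the normals, against 3699 to 8175 in the tumors, and 369 of 373 olfactory receptor genes were called lower in tumors. The normals also held more muscle and connective tissue RNA. All 7 smooth muscle markers were lower in tumors (median change -6.13), as were 4 of 6 fibroblast markers (1, PDGFRA, was higher), and the mean of the smooth muscle list ran from 5.19 to 7.24 in the normals and from -1.05 to 3.93 in the tumors. Of 8 epithelial markers 5 were higher in tumors, EPCAM (2.18), CDH1 (2.15), UPK3A (1.85), GRHL2 (1.43) and KRT19 (1.09), and KRT20 was lower (-3.75). UPK1A and UPK2, uroplakins like UPK3A, were not called (0.03 and 0.04). What part these differences have in the changes of the checkpoint genes was not tested.

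PDCD1, LGALS9 and IDO1 were higher in tumors than in normal mucosa, and CD274, PDCD1LG2 and HAVCR2 were not called in either direction. The 3 that rose did so by 4.43- to 8.28-fold, and the estimates for the other 3 lay between -0.47 and -0.83 on the log2 scale. So 3 of the 6 genes passed the threshold as higher, against 10.7% of all genes, and 0 of 6 as lower, against 45.8% (HAVCR2 alone fell below an unadjusted p of 0.05 on that side, at 0.0172). These counts depended on the table and on the genes they are read against. In the table normalized by DESeq the same 3 genes passed as higher, where 1377 of 24517 genes did, and PDCD1LG2 and HAVCR2 passed as lower, where 12045 did. Of the 18418 genes whose median lies above their lowest value, which is so for all 6, 2595 were higher and 5543 lower by TMM.

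**Figure D1:**
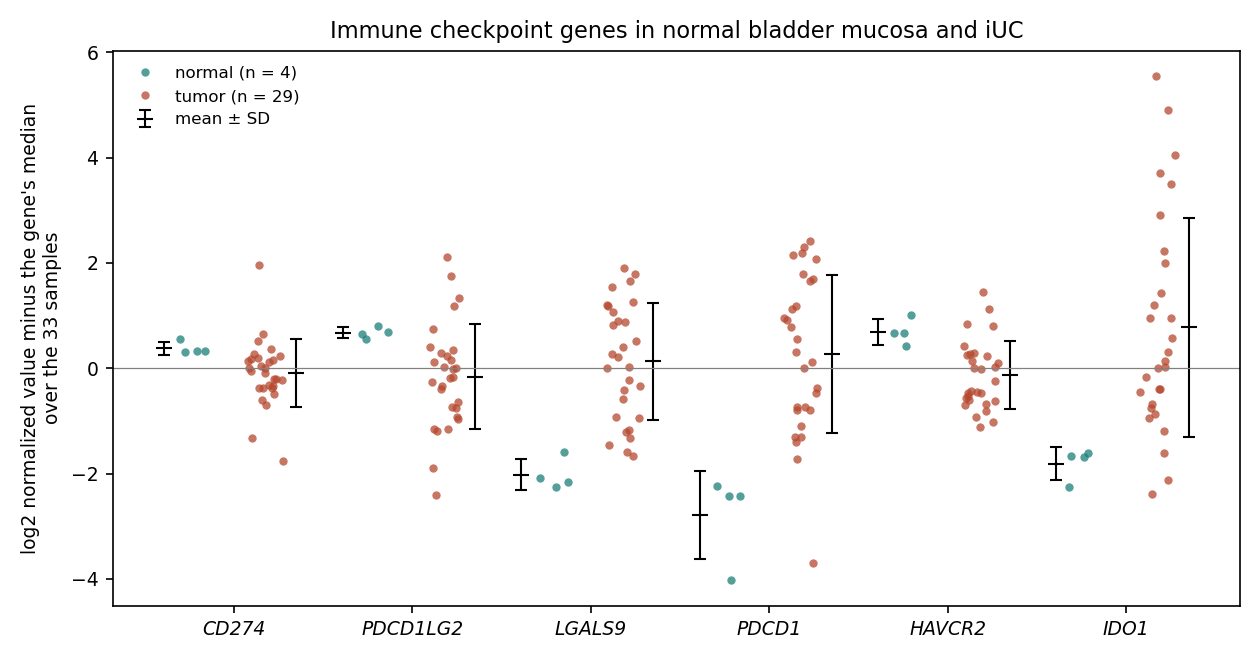
Log2 normalized value minus the gene's median over the 33 samples (vertical axis) for the 6 checkpoint genes, with 1 point for each of the 4 normals and 29 tumors and the mean ± SD of each group. For PDCD1, LGALS9 and IDO1 nearly all tumors lie above the 4 normals, whereas for CD274, PDCD1LG2 and HAVCR2 most tumors lie below them.

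Among the ligands, CD274 was 0.55, 0.31, 0.32 and 0.32 in normals A, B, C and D. In the tumors it ran from -1.77 (tumor Ab) through a median of -0.05 to 1.96 (tumor Da6). The 4 normals were close together, with 25 of 29 tumors below all of them and 2 above, and tumor Da6 stood 1.30 units above the next highest tumor. The mean difference was -0.47 ± 0.32 (SE) with a 95% interval from -1.12 to 0.18 (adjusted p = 0.191, limma, and exact permutation p = 0.165, two-sided). A fall of 2-fold thus lies inside the interval and a rise of 2-fold outside it.

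PDCD1LG2 was 0.69, 0.65, 0.80 and 0.56 in the 4 normals. The tumors ran from -2.40 (tumor CH) through -0.16 to 2.10 (tumor Da6). Of the 29 tumors, 24 were below every normal, 4 were above every normal and 1 was among them, so the tumors spread to both sides of a narrow normal range. The mean difference was -0.83 ± 0.49 (SE) with a 95% interval from -1.84 to 0.17 (adjusted p = 0.131, limma, and exact permutation p = 0.113). In the table normalized by DESeq the difference was -1.13, with an adjusted p of 0.0438.

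LGALS9 was -1.59, -2.08, -2.16 and -2.25 in the 4 normals. The tumors ran from -1.67 (tumor 15) through 0.22 to 1.91 (tumor Sn). Of the 29 tumors, 27 were above every normal and 2 lay within the normal range, below normal A alone. The rise was 2.15 ± 0.55 (SE) on the log2 scale, or 4.43-fold (95% interval 1.04 to 3.26 on the log2 scale, adjusted p = 0.000796, limma, and exact permutation p = 7.33e-05). It was between 2.07 and 2.29 with each normal left out in turn. Of 7 other galectin genes, none was called higher and LGALS1, a galectin of stromal cells and T cells, was called lower (-2.71), against 10.7% and 45.8% of all genes.

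Of the receptors, PDCD1 was -2.24, -2.43, -4.03 and -2.42 in the 4 normals, and normal C thus stood apart. The tumors ran from -3.70 (tumor CH) through 0.30 to 2.41 (tumor Da6). Of the 29 tumors, 28 were above every normal, and tumor CH was the exception. The rise was 3.05 ± 0.75 (SE) on the log2 scale, or 8.28-fold (95% interval 1.53 to 4.57 on the log2 scale, adjusted p = 0.000531, limma, and exact permutation p = 0.00044). Without normal C it was 2.63 (adjusted p = 0.00705).

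HAVCR2 was 1.00, 0.67, 0.42 and 0.66 in the 4 normals. The tumors ran from -1.11 (tumor 15) through -0.24 to 1.45 (tumor Sn). Of the 29 tumors, 24 were below every normal and 2 were above. The mean difference was -0.82 ± 0.33 (SE), with a 95% interval from -1.48 to -0.15 (adjusted p = 0.0256, limma, and exact permutation p = 0.0179). It passed the p threshold but was smaller than 2-fold, and with normal A, B or D left out the adjusted p was 0.0942, 0.0536 and 0.0548. In the table normalized by DESeq the difference was -1.12 (adjusted p = 0.00357), which passed both thresholds. That table lowers the median of the genes above their lowest value from -0.01 to -0.29. Measured from these medians, HAVCR2 changed by -0.81 by TMM and -0.82 by DESeq, and PDCD1LG2 by -0.82 and -0.84. The 2 relatives of HAVCR2 with a row, HAVCR1 (0.11 ± 0.43, SE) and TIMD4 (0.02 ± 0.51, SE), were not called either.

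IDO1 was -1.61, -2.26, -1.67 and -1.69 in the 4 normals. The tumors ran from -2.39 through 0.14 to 5.55 (tumor 5). Of the 29 tumors, 27 were above every normal, 1 was below and 1 was within. The rise was 2.58 ± 1.01 (SE) on the log2 scale, or 6-fold (95% interval 0.52 to 4.65 on the log2 scale, adjusted p = 0.0234, limma, and exact permutation p = 0.0178). It lost its call without normal B, at 2.43 with an adjusted p of 0.0660, and kept it without any of the other normals.

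PDCD1 is a gene of T cells, whose other markers were read beside it. Of 14 T-cell markers none was called higher (0 also at an unadjusted p under 0.05, limma), against 10.7% of all genes, and 2 were called lower, against 45.8%, among them THEMIS (-3.57), while CD3E, a chain of the T-cell receptor complex, changed by -0.11 ± 0.80 (SE). The mean of the T-cell list ran from 0.48 to 0.91 in the normals and from -1.77 to 2.94 in the tumors. CD8A and THEMIS were at their lowest value in some samples, and the other 12 were above it in all. PDCD1 minus this mean ran from -4.51 to -3.07 in the normals and from -3.05 to 3.55 in the tumors. The highest normal thus lay just below the lowest tumor, and the share of all genes that part the groups in this way is not given here. The difference between the group means of PDCD1 minus the list was 3.82 (exact permutation p = 2.44e-05, the smallest that 40920 assignments can give). This contrast was chosen after the values were seen, as 1 of 12 of each checkpoint gene against the T-cell or the myeloid list, and LGALS9 and IDO1 were higher in tumors from both lists too. Measured from the T-cell list LGALS9 differed by 2.92 (exact permutation p = 4.89e-05) and IDO1 by 3.36 (exact permutation p = 0.00462), and measured from the myeloid list PDCD1 differed by 2.71 (exact permutation p = 0.00183), LGALS9 by 1.81 (exact permutation p = 0.00103) and IDO1 by 2.24 (exact permutation p = 0.0464). HAVCR2 minus the mean of 15 myeloid markers ran from 0.68 to 1.24 in the normals and from -1.30 to 0.88 in the tumors, with a difference of -1.16 (exact permutation p = 0.000122). Measured from the T-cell list, HAVCR2 differed by -0.04 (exact permutation p = 0.935). Of the 15 myeloid markers 3 were called higher, against 10.7% of all genes, CD68 (1.95), CTSS (1.04) and LAPTM5 (1.01), and ITGAM was called lower (-1.47). The myeloid mean overlapped between the groups, from -0.57 to 0.22 in the normals and from -0.91 to 1.97 in the tumors.

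Other checkpoint and costimulatory genes were read from a list of 40 symbols, of which 21 had a row. CTLA4, LAG3 and TIGIT were not analysed here. Of the 21, 7 were called higher (10.7% of all genes were) and 2 lower (45.8%), with a median change of 0.03. The genes that rose were led by VTCN1 (B7-H4, 2.82), PVR (2.19) and NECTIN2 (1.70), the last 2 being ligands of TIGIT and CD226 that epithelial cells carry, and SIRPA (1.47), the receptor of CD47 on myeloid cells. TNFRSF14 (1.15), CEACAM1 (1.35) and HMGB1 (1.32) rose as well. The 2 genes that fell were TNFRSF9 (4-1BB, -3.54) and TNFSF4 (OX40 ligand, -3.18).

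**Figure D2:**
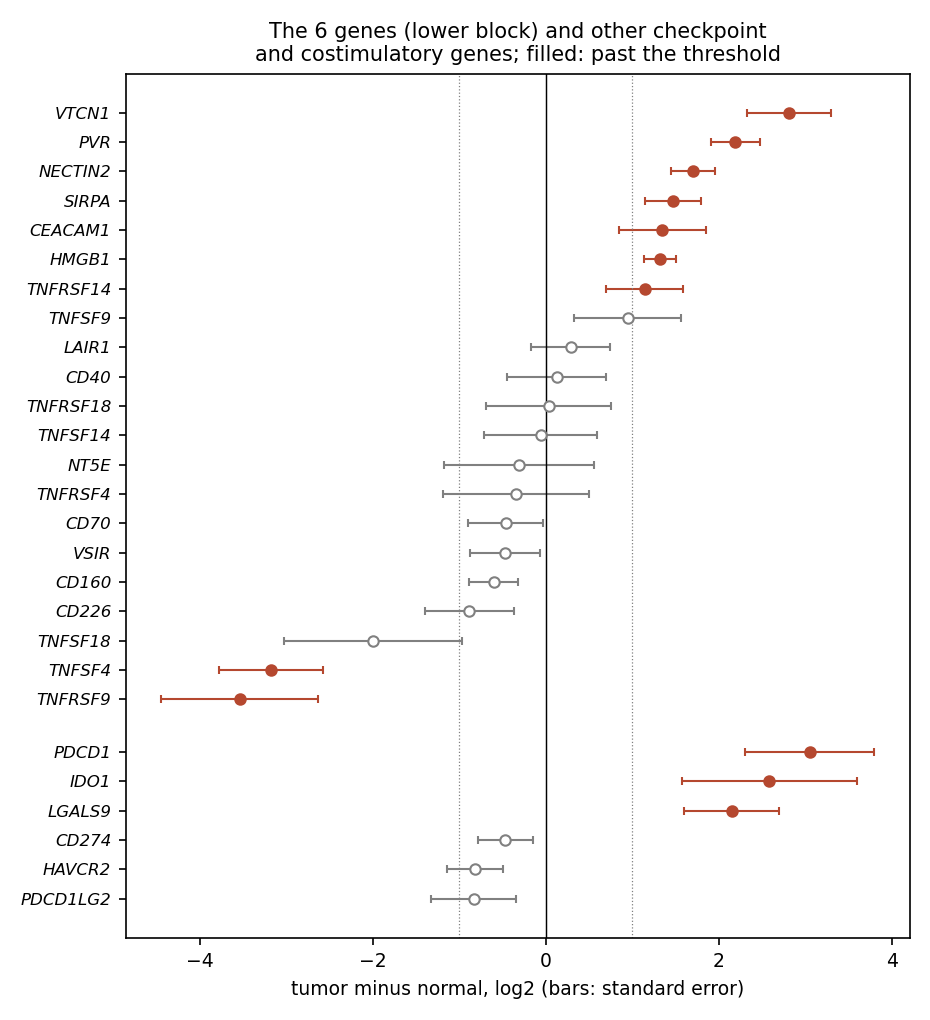
Difference between tumors and normals in log2 units (horizontal axis) with its standard error, for the 6 checkpoint genes in the lower block and 21 other checkpoint and costimulatory genes above. Filled points passed an adjusted p of 0.05 and a 2-fold change, marked by the dotted lines. PDCD1, IDO1 and LGALS9 lie to the right at 2.15 to 3.05, and CD274, HAVCR2 and PDCD1LG2 lie between -0.47 and -0.83.

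Genes of the pathways around the 6 were called in both directions, at shares to be read against the 10.7% of all genes that were higher and the 45.8% that were lower. In the tryptophan list 2 of 12 genes were called higher and 6 lower, which is near those shares. Those that rose were WARS (1.66), the tryptophanyl-tRNA synthetase, and AHR (1.31), the receptor that binds kynurenine. TDO2, the liver enzyme of the same step as IDO1, fell by 5.28 on the log2 scale, and the kynurenine enzymes KYNU (-2.41), KMO (-1.14) and QPRT (-1.87) were also lower, whereas IDO2 was not called (-0.54 ± 0.58, SE). Of 19 interferon gamma response genes 7 rose (IRF1, PSMB8, PSMB10, TAP1, TAP2, TAPBP and CD74, by 1.08 to 2.15) and 3 fell, IFNG itself (-4.95), GBP5 (-1.66) and SERPING1 (-1.42). The 9 that were not called included PSMB9 (0.72), NLRC5 (0.68), CIITA (0.96) and HLA-DRB1 (0.87). Of 13 genes that control PD-L1, 3 rose. They were CMTM4 (1.41), which stabilizes the protein, KEAP1 (1.15) and CSNK2A1 (1.35). Of 9 genes of PD-1 signaling and T-cell exhaustion 1 rose, PRDM1 (1.46), and 2 fell, the T-box factors EOMES (-2.71) and TBX21 (-1.97).

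The 6 genes also differed in how much they varied among the tumors. The SD over the 29 tumors was 2.07 for IDO1, 1.5 for PDCD1, 1.11 for LGALS9, 1.00 for PDCD1LG2, 0.65 for HAVCR2 and 0.64 for CD274. Among 22030 genes these stood at the percentiles 98.0, 92.4, 77.9, 71.7, 45.0 and 44.3. IDO1 thus spanned 7.93 log2 units, against 2.56 for HAVCR2. In the normals the SD was between 0.10 and 0.84, and for each of the 6 genes it was below that of the tumors.

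High values met in a few tumors. Tumor Da6 was among the 7 highest tumors for all 6 genes, tumor 5 for 5 of them and tumor Sn for 4. Of the others, 10 tumors were among the 7 highest for none of the genes and 8 for 1 gene. Tumor CH was lowest for both PDCD1 and PDCD1LG2.

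Whether the 6 genes varied together was asked over the tumors alone. Pearson's r was positive in all 15 pairs, from 0.06 to 0.53, and no pair passed the adjustment over all genes in limma's test along either gene (smallest adjusted p = 0.118, for PDCD1LG2 along CD274, and the larger p of the 2 directions is given for each pair). Unadjusted, r had a permutation p under 0.05 in 6 pairs and Spearman's rho in 4. The strongest pair was IDO1 with LGALS9 (r = 0.53, permutation p = 0.00292, rho = 0.56, p = 0.00194, r = 0.44 without the 2 tumors farthest in IDO1, adjusted p = 0.14). It was followed by PDCD1 with LGALS9 (r = 0.51, permutation p = 0.00521, rho = 0.49, p = 0.008, r = 0.43 without 2 tumors, adjusted p = 0.378). CD274 and PDCD1LG2, which are next to each other in the RefSeq annotation of the dog genome, gave r = 0.46 (permutation p = 0.0133, rho = 0.29, p = 0.125, adjusted p = 0.223), which was 0.23 without the 2 tumors farthest in CD274. HAVCR2 with its ligand LGALS9 gave r = 0.27 (permutation p = 0.157, rho = 0.25, p = 0.194, r = 0.15 without 2 tumors), and PDCD1 with its ligand CD274 gave r = 0.30 (permutation p = 0.119, rho = 0.22, p = 0.244, r = 0.15 without 2 tumors). PDCD1LG2 with IDO1 was the weakest at 0.06, and became -0.22 without 2 tumors.

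**Figure D3:**
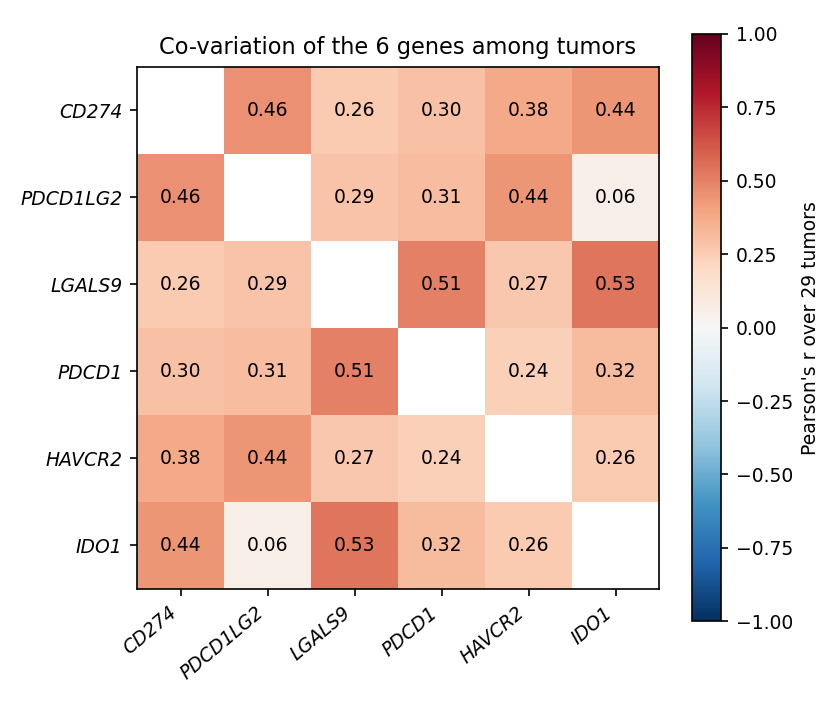
Pearson's r over the 29 tumors for each pair of the 6 genes, in cells colored from -1 (blue) to 1 (red), with the diagonal left blank. All 15 values are positive, from 0.06 for PDCD1LG2 with IDO1 to 0.53 for IDO1 with LGALS9.

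The genes that followed each checkpoint gene over the tumors were then compared. The share of 22029 genes that rose along a checkpoint gene (adjusted p of at most 0.05, limma) was 2.17% for CD274 (479 genes), 1.6% for PDCD1LG2 (353), 0.831% for HAVCR2 (183), 0.458% for LGALS9 (101) and 0.0908% for IDO1 (20). It was 0.0% for PDCD1, along which 0 genes rose or fell, and 1889 genes had an unadjusted p under 0.05. These shares are the background for the counts of marker genes. The counts depended on how the tumors were weighed. By ranks 0 genes rose along CD274, HAVCR2 and IDO1, 203 along PDCD1LG2 and 85 along LGALS9. Without the 2 tumors farthest in the gene itself, 0 rose along CD274 and IDO1, 31 along HAVCR2, 258 along PDCD1LG2 and 90 along LGALS9, and without tumor Da6 58 rose along HAVCR2, 208 along PDCD1LG2, 18 along IDO1, 103 along LGALS9 and 626 along CD274, the last more than with it. With 0 genes called after adjustment by ranks, 3432, 2947 and 2532 genes had an unadjusted p under 0.05 along CD274, HAVCR2 and IDO1.

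PDCD1LG2 rose with markers of T cells and of myeloid cells. Of 14 T-cell markers 11 rose along it, with r between 0.33 and 0.82 over the list, and ZAP70, the kinase of the T-cell receptor, was the highest (r = 0.82, adjusted p = 9.05e-05). Of 15 myeloid markers 11 rose too, among them CTSS (0.72), C1QB and AIF1 (0.71). The genes most like it included GIMAP4 (r = 0.85) and ITGAL (0.84), both of leukocytes. BATF (0.81) and TBX21 (0.78), transcription factors of activated T cells, also rose along it, as did the inhibitory receptors VSIR (0.71) and LAIR1 (0.64). By ranks 7 of the T-cell and 9 of the myeloid markers passed, without the 2 farthest tumors 7 and 11, and without tumor Da6 8 and 11.

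CD274 rose with lymphoid markers when all 29 tumors were taken, and those calls were lost without the 2 tumors farthest from its median. Along it rose 7 of 14 T-cell markers, with CD5 (0.68) and CD3E (0.63) the highest, 3 of 8 B-cell and plasma cell markers, with TNFRSF17 the highest at 0.77, and 0 of 15 myeloid markers (5 at an unadjusted p under 0.05, limma, where 18.7% of all genes rose or fell at that p). Of 6 dendritic markers 1 rose, CCR7 (0.66), and of 4 neutrophil markers 1 rose, S100A8 (0.57), with 4 and 4 at an unadjusted p under 0.05 (limma). By ranks and without these 2 tumors none of these markers passed, with a median r over the T-cell list of 0.53 and 0.41 against 0.55 over all tumors. Without tumor Da6 0 of 14 T-cell and 1 of 8 B-cell markers passed, while 626 of all genes rose. That the 2 ligands differ in this was not tested. Of 19 interferon gamma response genes 5 rose, namely NLRC5 (0.79), the activator of class I antigen presentation, GBP5 (0.73), GBP1 (0.69), SOCS1 (0.62) and IRF8 (0.58), with 0 of 19 left by ranks and without the 2 farthest tumors and 2 without tumor Da6. The genes most like CD274 were GPR183 (r = 0.81, rho = 0.54), IL2RA (r = 0.80, rho = 0.71), a chain of the interleukin-2 receptor, and TNNI1 (r = 0.80, rho = 0.75). Without the 2 tumors farthest in CD274 these became 0.56, 0.70 and 0.77. Of the genes beside CD274 on its chromosome, PLGRKT (r = -0.04), RIC1 (0.23) and JAK2 (0.09) did not pass, and ERMP1 fell along it (r = -0.65, adjusted p = 0.0178), a call lost by ranks (rho = -0.54) and without the 2 farthest tumors (r = -0.56), where 0 genes rose or fell along CD274. None of the 13 genes of PD-L1 control passed, and 2 fell along CD274 at an unadjusted p under 0.05, near the share of all genes that rose or fell at that p.

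HAVCR2 rose with myeloid and dendritic markers over all 29 tumors. Of 15 myeloid markers 7 rose along it, CSF1R and AIF1 (both 0.66) the highest, and of 6 dendritic markers 3 rose, CCR7 (0.71), BATF3 (0.68) and FLT3 (0.62). By ranks 0 of the 15 and 0 of the 6 passed, without the 2 tumors farthest in HAVCR2 0 and 2, and without tumor Da6 1 and 2. The median r over the myeloid list was 0.59, and 0.55, 0.45 and 0.55 in these 3 settings. Of the 14 T-cell markers CD2 (0.61) alone passed. In the regulatory T-cell list 3 of 7 genes rose, the chemokine receptor CCR4 (0.66), its ligand CCL22 (0.62) and IL10 (0.60). IRF8 (0.74), a factor of dendritic and myeloid cells, rose as well. None of these genes passed by ranks. The most alike were IL10RA (r = 0.78), DUSP1 (0.78) and IL18RAP (0.78), and its neighbour HAVCR1 followed at 0.75 (adjusted p = 0.00516).

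LGALS9 followed the antiviral interferon genes. The 3 genes most like it were OAS1 (r = 0.94, rho = 0.93, adjusted p = 1.36e-10), which senses double-stranded RNA, EIF2AK2 (r = 0.93, rho = 0.92), the kinase that then stops translation, and ISG15 (r = 0.93, rho = 0.92), and each stayed above 0.91 without the 2 tumors farthest in LGALS9. In a list of 24 such genes made after this was seen, and so described only, r ran from 0.45 to 0.94 with a median of 0.85. The same list had a median r of 0.49 with IDO1, 0.34 with PDCD1, 0.24 with CD274, 0.21 with PDCD1LG2 and 0.18 with HAVCR2. In tumors against normals 20 of its 24 genes were called higher, against 10.7% of all genes, and 1 lower, against 45.8%. Their median change was 2.10, beside 2.15 for LGALS9, so a rise of this size was not particular to LGALS9. Of the 19 interferon gamma response genes 6 rose along LGALS9, the immunoproteasome subunits PSMB10 (0.82), PSMB8 (0.79) and PSMB9 (0.70) and the peptide loading genes TAP1 (0.78), TAPBP (0.70) and TAP2 (0.67). None of the T-cell, cytotoxic, myeloid or B-cell markers passed in limma's test, and 2 of 14, 3 of 7, 7 of 15 and 0 of 8 rose at an unadjusted p under 0.05, where 11.8% of all genes rose or fell at that p. Its neighbours NOS2 (r = 0.01) and KSR1 (r = -0.40) did not pass.

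IDO1 had few followers past the adjustment (20 genes). At an unadjusted p under 0.05 (limma) 13.5% of all genes rose or fell along it, against 11.8% along LGALS9. IRF1 (r = 0.80, rho = 0.81, adjusted p = 0.00374), the transcription factor through which interferon gamma acts, was the most alike, with r = 0.75 without the 2 tumors farthest in IDO1, where no gene passed over all genes, as by ranks. WARS, another tryptophan gene known to answer interferon gamma, was next (r = 0.76, adjusted p = 0.0151), then IFGGC1 (0.74), and PSMB10 (0.73) also rose. IDO2, close to IDO1 in the annotation, gave r = 0.54 (permutation p = 0.00259) but did not pass over all genes. TDO2 (0.19), KYNU (0.29) and KMO (0.01) were weaker still, and so were IFNG (0.32) and CD3E (0.16).

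PDCD1 was the exception, with no gene past the adjustment. The most alike were AGTRAP (r = 0.72, adjusted p = 0.152), MFSD12 (0.67) and INPP5D (0.67), the last a lipid phosphatase of leukocytes. Of the 14 T-cell markers 11 rose at an unadjusted p under 0.05 and 0 after adjustment, in limma's test, and 8.58% of all genes rose or fell at that unadjusted p. Here r was 0.48 with LCK, 0.42 with CD3D, 0.40 with CD8A and 0.35 with CD3E (permutation p between 0.00779 and 0.0594), and 0.33, 0.27, 0.22 and 0.20 without the 2 tumors farthest in PDCD1.

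**Figure D4:**
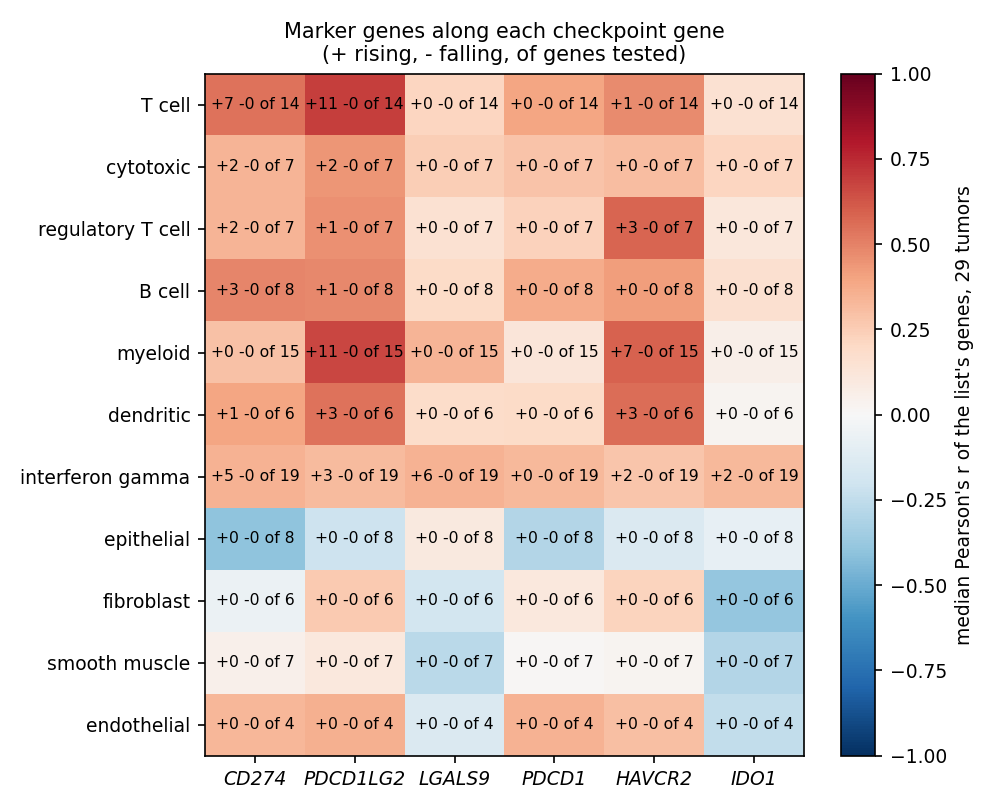
Median Pearson's r over the 29 tumors of the genes of 11 marker lists (rows) with each of the 6 checkpoint genes (columns), colored from -1 (blue) to 1 (red). The numbers give how many genes of the list rose (+) or fell (-) along the checkpoint gene of those tested. Over all 29 tumors the largest counts are 11 of 14 T-cell and 11 of 15 myeloid markers for PDCD1LG2, 7 of 14 T-cell markers for CD274 and 7 of 15 myeloid markers for HAVCR2.

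The same relations were read along scores, each the mean of the standardized markers of a list, with the adjustment over 22030 genes. Of 54 relations of a checkpoint gene with a score, 9 passed. PDCD1LG2 rose along the T-cell score (r = 0.74, permutation p = 1e-05, the smallest possible, rho = 0.69, r = 0.64 without the 2 tumors farthest in the score, adjusted p = 0.000352) and so did CD274 (r = 0.61, permutation p = 0.0004, rho = 0.60, r = 0.46 without 2 tumors, adjusted p = 0.0219), where 3.0% of all genes rose. Along the myeloid score, with 2.53% of all genes, PDCD1LG2 (r = 0.73, rho = 0.70, adjusted p = 0.000584) and HAVCR2 (r = 0.69, rho = 0.58, adjusted p = 0.00347) rose, at 0.65 and 0.66 without 2 tumors. CD274 (r = 0.66, adjusted p = 0.00708) and PDCD1LG2 (r = 0.57, adjusted p = 0.0326) rose along the B-cell score, with 2.89% of all genes, at r = 0.48 and 0.46 without 2 tumors, and PDCD1LG2 along the cytotoxic score (r = 0.66, adjusted p = 0.00750, r = 0.59 without 2 tumors), with 1.81%. LGALS9 rose along the interferon gamma score (r = 0.69, rho = 0.71, permutation p = 3e-05, r = 0.70 without 2 tumors, adjusted p = 0.00706), with 0.944% of all genes, and IDO1 missed it (r = 0.58, permutation p = 0.001, rho = 0.51, r = 0.50 without 2 tumors, adjusted p = 0.0513). CD274 fell along the epithelial score (r = -0.62, adjusted p = 0.025), with 1.97% of all genes, although rho was -0.28 (permutation p = 0.141) and r was -0.34 without 2 tumors. Without the 2 tumors farthest in the score, 4 of the 9 relations still passed, those of PDCD1LG2 with the T-cell and myeloid scores, HAVCR2 with the myeloid score and LGALS9 with the interferon gamma score. Lost were CD274 with the T-cell, B-cell and epithelial scores and PDCD1LG2 with the cytotoxic and B-cell scores. CD274 with the T-cell score also missed with the share of genes at the lowest value as a covariate (adjusted p = 0.0520), and in the DESeq table IDO1 passed along the interferon gamma score (r = 0.59, adjusted p = 0.0385). The scores are not independent, as the T-cell score had r = 0.92 with the cytotoxic, 0.79 with the B-cell and 0.66 with the myeloid score.

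**Figure D5:**
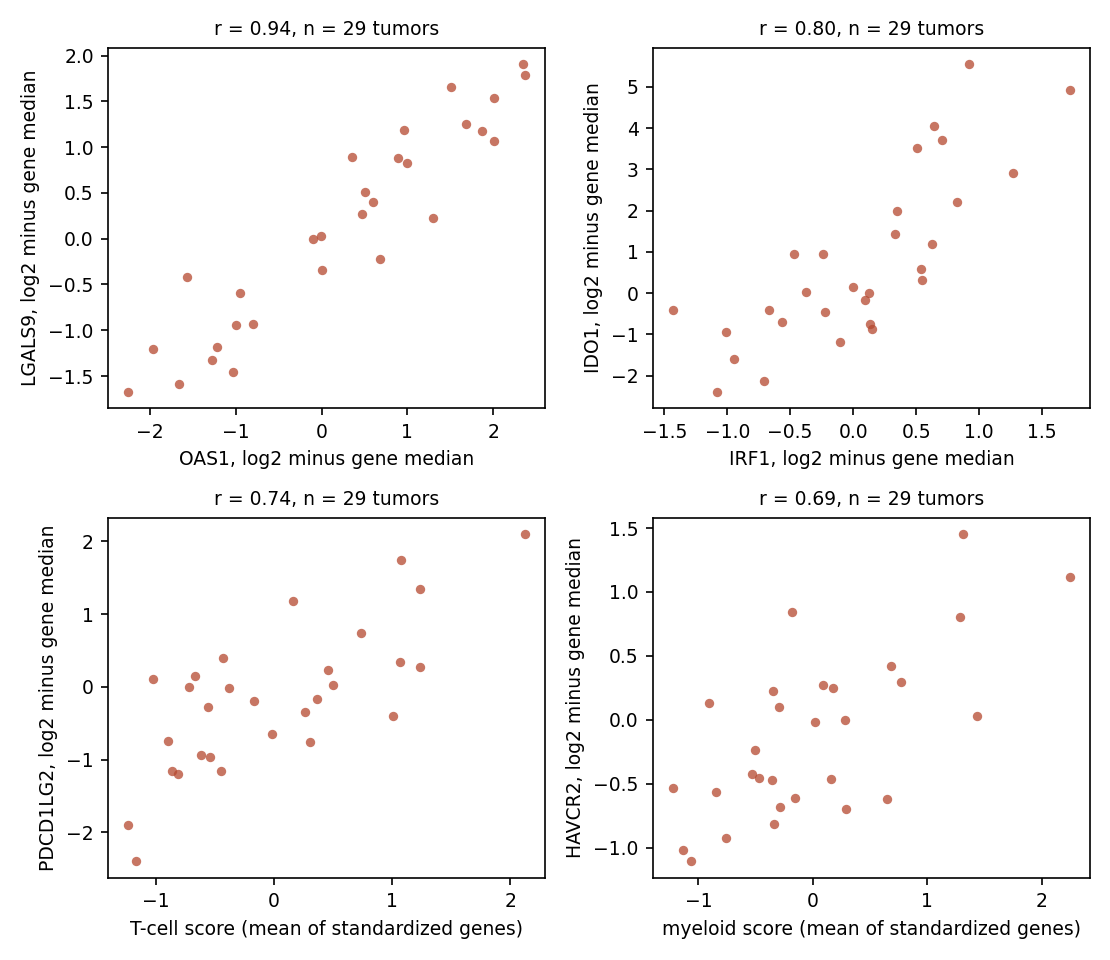
Values of the 29 tumors, 1 point each, for LGALS9 against OAS1, IDO1 against IRF1 (both axes in log2 units minus the gene's median), PDCD1LG2 against the T-cell score and HAVCR2 against the myeloid score (score axes in SD units averaged over the list). All 4 panels rise from left to right, with r of 0.94, 0.80, 0.74 and 0.69.

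None of the 6 genes passed along the fibroblast score (2.19% of all genes rose) or the smooth muscle score (1.58%), in limma's test, and the permutation p of r was under 0.05 for 1 gene and for 0. The 1 gene was IDO1, at r = -0.47 with the fibroblast score (permutation p = 0.00971, rho = -0.47, adjusted p = 0.158). The study sorted these tumors into classes by a list of luminal and basal genes. The class of each tumor is not used here, and the first principal component of 634 genes of that list, which the study chose on these samples, was taken in its place. This component had r = 0.81 with the fibroblast and 0.75 with the smooth muscle score over the tumors, and no value here ties it to the luminal and basal classes. Along this component 5.64% of all genes rose and none of the 6 checkpoint genes passed, with the nearest being HAVCR2 (r = 0.44, permutation p = 0.0167, adjusted p = 0.14) and PDCD1LG2 (r = 0.44, permutation p = 0.0181, adjusted p = 0.13). The share of genes at their lowest value in a tumor had r between -0.34 and -0.07 with the 6 genes, none past the adjustment, and no permutation p of r was under 0.05.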

How the data were processed

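RNA from 29 tumors and 4 normals was sequenced in 1 batch. Per the study's methods, the authors aligned paired reads to CanFam3.1 with COBWeb in Strand NGS and normalized the data by TMM or by DESeq. The deposited values were centred on each gene's median over the 33 samples and were read here as log2 values. The methods do not describe this form. Both tables end within a line, and that line was left out. The values are not counts, so the depth of each sample and its precision are unknown (the methods state an average alone) and no count model was run. The study's count tests were replaced by limma 3.58.1 (R 4.3.3, trended variance) on the deposited log2 values without a pseudocount. Genes were tested if 4 or more samples exceeded the gene's shared lowest value. P-values are Benjamini-Hochberg adjusted over all genes tested. Along a gene or score the same model took its values over the tumors, and a pair was given the larger adjusted p of its 2 directions. Single genes were also compared by a two-sided exact permutation test, and correlations by 100000 permutations (Python 3.11.15, numpy 2.4.6). Both fits were tested on simulated data with independent, normally distributed genes, the same spread in both groups and no shared lowest values. The real data differ from that setting, so how well the p-values hold for them was not tested. The named genes are the 6 members, the 3 genes with a symbol most correlated with each, and, per list, counts with up to 4 genes of the largest change or defining markers; neighbours and other listed genes were named after their values were seen. Some genes that this rule names are not reported here. The members and lists were chosen with earlier results of these data known. RefSeq (UU_Cfam_GSD_1.0) gave names and neighbours only, since its build differs, and 777 genes were named by their NCBI number. Alternatives were the table the authors normalized by DESeq, other filters and variance models, recentred samples, covariates, ranks and samples left out.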

Additional observations from a re-analysis of the deposited data

Results flagged for a closer look

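In 3 of the 6 genes a normal sample lay far from the other 3, by Dixon's ratio of its gap to the range of the group, which exceeded the 95% critical value for 4 samples. PDCD1 in normal C was -4.03 (ratio 0.897), CD274 in normal A was 0.55 (ratio 0.934) and IDO1 in normal B was -2.26 (ratio 0.881). For normally distributed values chance gives such a value in about 1 of 20 groups. The share of all genes with such a normal is not given here, so the 3 of 6 genes cannot be compared with it. The range of the normals was 1.79 for PDCD1, 0.24 for CD274 and 0.65 for IDO1.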

How the results depend on the processing

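No paired analysis was possible because the normals and tumors share no replicate names. The DESeq table gave 1377 genes higher in tumors (2615 by TMM), and genes with a median above the lowest value alone gave 5543 lower (11206). In the DESeq table PDCD1LG2 (-1.13) and HAVCR2 (-1.12) passed as lower. With each normal left out in turn, the difference was -0.49 to -0.41 for CD274, -0.87 to -0.79 for PDCD1LG2, 2.63 to 3.23 for PDCD1, -0.91 to -0.71 for HAVCR2, 2.43 to 2.65 for IDO1 and 2.07 to 2.29 for LGALS9, and the call of IDO1 was lost without normal B. In contrasts added after the data were seen, measured from the T-cell list, CD274 differed by 0.31, PDCD1LG2 by -0.06 and HAVCR2 by -0.04 (exact permutation p = 0.551, 0.887 and 0.935), and measured from the myeloid list they differed by -0.81, -1.17 and -1.16 (exact permutation p = 0.0436, 0.00237 and 0.000122). Genes rising along CD274 (479) numbered 0 by ranks, 0 without the 2 farthest tumors, 172 with the share of genes at the lowest value and 314 with the T-cell score as a covariate, and more than 479 in the DESeq table (580), with the myeloid score (558) and without tumor Da6 (626). Those along PDCD1LG2 (353) numbered 203 by ranks, 1 and 0 with the T-cell and myeloid scores as covariates and 208 without tumor Da6. Those along HAVCR2 (183) numbered 0 by ranks, 120 with the share, 0 and 0 with the T-cell and myeloid scores, 31 without the 2 farthest tumors and 58 without tumor Da6. Those along IDO1 (20) numbered 0 by ranks, 8 with the share, 32 with the myeloid score and 0 without the 2 farthest tumors. Those along LGALS9 (101) stayed within 85 and 119. No pair of genes passed under any alternative. With the T-cell score as a covariate r was -0.016 for PDCD1LG2 with PDCD1 and -0.11 with IDO1, and with the myeloid score it was -0.12 with HAVCR2. By ranks PDCD1LG2 with IDO1 was -0.10. Without the 2 farthest tumors PDCD1LG2 had r = -0.030 with PDCD1 and -0.22 with IDO1, and without tumor Da6 (added after the data were seen) -0.13 with IDO1. Without the 2 farthest tumors 4 of the 9 relations with a score passed, CD274 with the T-cell score missed with the share of genes at the lowest value as a covariate (adjusted p = 0.0520), and IDO1 with the interferon gamma score passed in the DESeq table (0.0385). Without the 2 farthest tumors IDO1 with the epithelial score was 0.050, and with the share of genes at the lowest value as a covariate IDO1 with the myeloid score was -0.00059. Other causes of these shifts were not tested. The depth of each sample is unknown, 4 normals limit each comparison with tumors, and the labels give no tumor class.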
